A study of Mus musculus with 2 samples.

Results

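The mitochondrial genome of the mouse carries 37 genes, and all of them were among the 55487 genes of the deposited expression table. They are 13 mRNAs, 2 ribosomal RNAs and 22 transfer RNAs, and were chosen as the rows whose Ensembl identifier lies on the mitochondrial chromosome in the GENCODE M21 annotation of GRCm38. RNA sequencing compared apoptotic osteoblasts (bone-forming cells) of old mice with those of young mice, with 1 library per age group. In both groups stromal cells grown out of bone pieces were passaged 3 times, kept in osteogenic medium for 3 days and put under ultraviolet light, after which most stained with Trypan Blue, as dead cells do. Both libraries come from such cells, and none from cells spared the light. The treatment label reads day 5 for the old and day 0 for the young library while the treatment protocol reads none, so day and age cannot be told apart. The labels state neither strain nor sex, age in months or number of animals.

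With 1 library per group the spread between animals or cultures cannot be estimated, and no p-value was made. Library totals were inferred from the deposited values as those that turn them into whole reads. They were 18114336 for the old and 16333396 for the young library. These were taken as the reads counted on genes, and shares of reads rest on them. Values are FPKM, fragments scaled to gene length and sequencing depth, as deposited by the authors. For all mitochondrial genes with a value above 0 the FPKM converted back into whole reads within a tolerance of 0.01. Brackets hold 95% exact counting intervals, which cover counting error only, and PCR copies are not independent molecules. A ratio is FPKM in the old library over FPKM in the young, or for a group of genes its share of reads in the old over that in the young. Of 8 osteoblast markers, 7 reached 1 FPKM in both libraries, among them Runx2 at 72.7 FPKM in the old and 92.1 FPKM in the young library. The exception was Bglap, which encodes osteocalcin, with 6 and 3 reads in the old and young libraries, and Alpl, the bone alkaline phosphatase, was low at 3.28 and 2.78 FPKM. Osteoblast markers did not move together: Spp1 (osteopontin) was at 1732 FPKM in the old and 224 FPKM in the young library, and Col1a1 (collagen I) at 6788 and 8568 FPKM. The part of such differences in the mitochondrial values was not tested. Of 19 markers of macrophages, lymphocytes, red cells, vessels, fat and muscle, 1 reached 1 FPKM in both libraries: Cd68, a lysosomal protein, at 4.36 FPKM in the old and 4.51 FPKM in the young library. The 19 summed to 5.52 FPKM in the old and 6.04 FPKM in the young library, and 8 of them, among them Adgre1, Itgam and Cd3e, had no reads in either.

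Mitochondria keep a small circular genome whose mRNAs all encode core subunits of the respiratory chain and of the ATP synthase, while the other subunits of these complexes come from the nucleus. Its strands are transcribed into long RNAs that span many genes. Enzymes cut these at the transfer RNAs that lie between the coding genes, and most of the freed mRNAs then receive a poly(A) tail. Pieces of the mitochondrial genome have also been copied into nuclear chromosomes during evolution, and in the mouse a long stretch on chromosome 1 is still nearly identical to its source.

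That stretch bears on the values of several members. In the annotation 15 genes outside the mitochondrial chromosome share at least 1 word of 50 bases with a mitochondrial gene, and 7 of them lie side by side on chromosome 1 between 24611535 and 24616197 (GRCm38, minus strand), a span of 4663 bases. They copy, in mitochondrial order, the end of mt-Co1 (Gm29216), mt-Co2 (Gm28661), mt-Atp6 (Gm10925), mt-Co3 (Gm28437), mt-Nd3 (Gm28438), mt-Nd4l (Gm10222) and the start of mt-Nd4 (Gm28439). All are annotated as unprocessed pseudogenes. Over their aligned length 5 of the 7 did not differ from the mitochondrial gene at any base. Gm28438 differed at 1 of 345 bases and Gm29216 at 6 of 492. The ends of mt-Atp6 (chrM:8548-8607, plus strand) and of Gm10925 (chr1:24613974-24614030, minus strand) show how little separates a pair. Capitals mark the 3 bases, a stop codon, that the annotated copy does not include.
mt-Atp6: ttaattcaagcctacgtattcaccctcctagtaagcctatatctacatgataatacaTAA
Gm10925: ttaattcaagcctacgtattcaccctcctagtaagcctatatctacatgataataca

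The first 60 bases of mt-Nd3 (chrM:9459-9518, plus strand) and of Gm28438 (chr1:24613060-24613119, minus strand) hold the single difference of that pair, T3C, counted from 1 at the first base of the gene. It is in capitals.
mt-Nd3: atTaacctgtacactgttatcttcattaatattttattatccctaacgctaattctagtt
Gm28438: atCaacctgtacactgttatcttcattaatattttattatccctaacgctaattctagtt

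As a share of their words of 50 bases, mt-Co2 was found elsewhere at 100%, mt-Co3 at 99.9%, mt-Atp6 at 99.5%, mt-Nd4l at 98.8% and mt-Nd3 at 98.0%. For mt-Nd4 the share was 62.2% and for mt-Co1 51.1%. It was 8.19% for mt-Nd2, 7.61% for mt-Nd5 and 1.04% for mt-Rnr2, and 0 for every other member. These shares cover annotated transcripts only. mt-Atp8 is among these last. If the spacing of its neighbours holds, its place in the block is chr1:24614609-24614812. There Gm10925 covers the 43 bases that mt-Atp8 shares with mt-Atp6, fewer than a word holds. No annotated gene covers the rest, whose bases were not examined. The transfer RNAs mt-Ts1, mt-Td, mt-Tk, mt-Tg and mt-Tr also lie between copied genes in the mitochondrial genome. Bases at their places in the block were not examined either.

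The levels of the mRNAs spread over more than 3 orders of magnitude in each library. In the old library the 5 genes with over 97% of their words shared lay between 5.39 FPKM (mt-Nd4l) and 149 FPKM (mt-Co2). Their range in the young library was 7.01 FPKM (mt-Nd4l) to 133 FPKM (mt-Co2). Of the 5 plus-strand mRNAs with under 10% shared, mt-Nd1, mt-Nd2, mt-Nd5 and mt-Cytb lay between 1549 and 6082 FPKM in the old library and between 1872 and 6136 FPKM in the young. The fifth, mt-Atp8, was the lowest mRNA of all at 1.35 FPKM in the old and 0.600 FPKM in the young library. It had 5 reads in the old and 2 in the young library. Because most bases at its place in the block were not examined, it cannot be set among the genes with little sharing. On the minus strand mt-Nd6, with no shared words, was at 385 FPKM in the old and 272 FPKM in the young library, below those 4 plus-strand genes. The part that sharing with the copies has in low values was not tested, and the levels of the 5 genes with over 97% shared are uncertain.

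**Figure D1:**
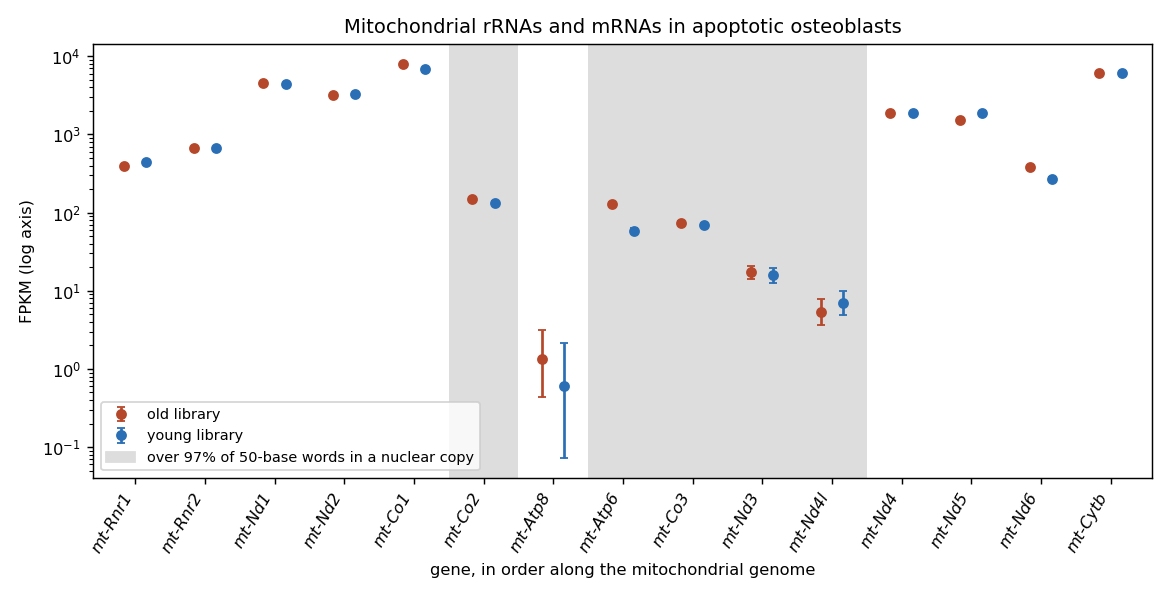
FPKM on a log axis of the 2 rRNAs and 13 mRNAs, in their order along the mitochondrial genome, for the old and the young library. Bars are 95% exact Poisson counting intervals, and grey marks genes with over 97% of their 50-base words in a nuclear copy, which lie between 5.39 and 149 FPKM in the old library.

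The order of levels was nearly the same in the libraries. It ran mt-Co1, mt-Cytb, mt-Nd1 and mt-Nd2 from the top, and mt-Co1 ranked 4 among all genes of the table in the old library and 7 in the young. Places 5 and 6 were mt-Nd4 and mt-Nd5 in the old library, where their intervals were apart, and mt-Nd5 and mt-Nd4 in the young, where the intervals overlapped. Next came mt-Rnr2, mt-Rnr1, mt-Nd6 and mt-Co2, with overlapping intervals for mt-Rnr1 and mt-Nd6 in the old library. mt-Atp6 stood above mt-Co3 in the old library and below it in the young. mt-Nd3, mt-Nd4l and mt-Atp8 closed the order in both.

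Most members differed little between old and young. Of the 37 genes, 22 had a mean of at least 1 FPKM over the libraries, the floor used for all genes, and 2 of these, mt-Atp6 and mt-Ta, exceeded 2-fold with the old library on top, on the scale of log2(FPKM + 1). None was 2-fold lower. Over the 12561 genes of the table with such a mean, 1.97% were 2-fold higher and 0.868% were 2-fold lower. Of the 15 members under the floor, 13 transfer RNAs had no reads at all, and mt-Atp8 and mt-Tm had few. Among the 12 mRNAs over the floor 8 had log2 ratios above 0 and 4 below, with a median of 0.06, beside a median of −0.07 over all 12561 genes. The median turned to −0.013 over the 5 mRNAs that are left without those sharing 50% or more of their words.

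**Figure D2:**
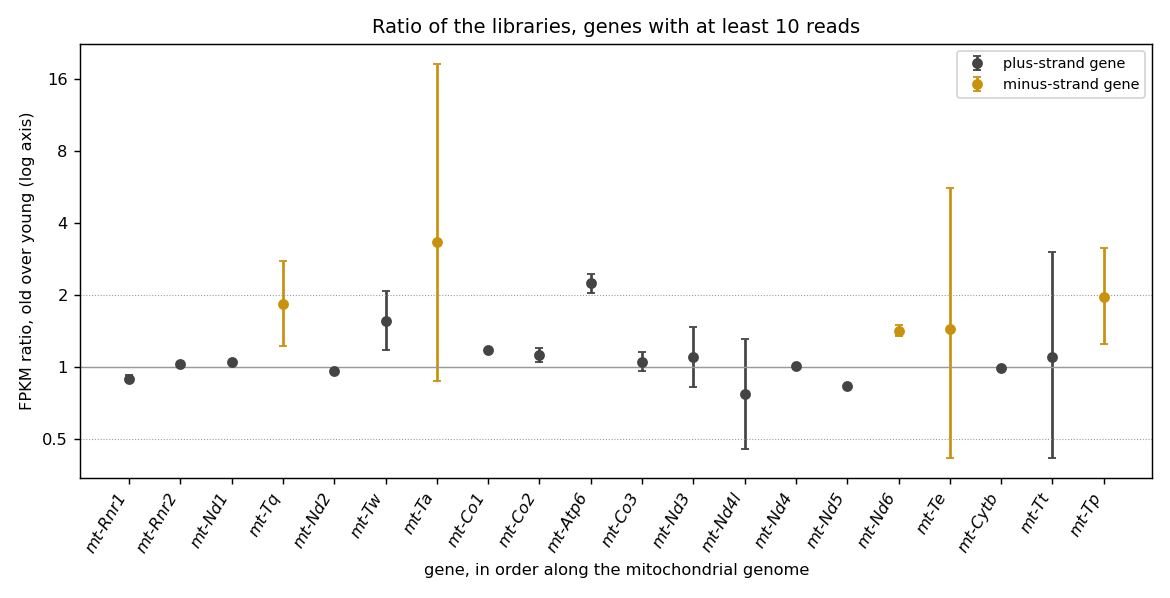
Ratio of FPKM, old over young, on a log axis for the members with at least 10 reads over both libraries, in genome order, with 95% exact counting intervals and dotted lines at 2-fold. The mRNAs run from 0.769 (mt-Nd4l) to 2.23 (mt-Atp6), and the 5 minus-strand genes shown lie between 1.41 (mt-Nd6) and 3.31 (mt-Ta).

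Complex I, the NADH dehydrogenase that feeds electrons into the chain, takes 7 subunits from the mitochondrial genome. mt-Nd1 (ENSMUSG00000064341, chrM:2751-3707), which lines the passage to the quinone site, was at 4564 FPKM in the old and 4374 FPKM in the young library, a ratio of 1.04 [1.03 to 1.05]. mt-Nd2 (ENSMUSG00000064345, chrM:3914-4951), one of the antiporter-like subunits of the proton-pumping arm, was at 3168 FPKM in the old and 3310 FPKM in the young, a ratio of 0.957 [0.946 to 0.968]. mt-Nd4 (ENSMUSG00000064363, chrM:10167-11544), another of these, was at 1865 and 1860 FPKM in the old and young libraries, a ratio of 1.003 [0.990 to 1.02]. These 3 were close to even.

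mt-Nd5 (ENSMUSG00000064367, chrM:11742-13565), the antiporter-like subunit at the far end of that arm, was lower in the old library, at 1549 FPKM against 1872 FPKM in the young. Its ratio was 0.827 [0.817 to 0.837]. mt-Nd6 (ENSMUSG00000064368, chrM:13552-14070), the sole mRNA on the minus strand, overlaps it by 14 bases at its end and went the other way. It was at 385 FPKM in the old and 272 FPKM in the young library, a ratio of 1.41 [1.34 to 1.49] on 3620 and 2307 reads. Of the 12561 genes, 6.96% had a log2 ratio as high as that of mt-Nd6 or higher. mt-Nd6 stood at 24.9% of the FPKM of mt-Nd5 in the old library and 14.5% in the young. In human cells the mRNA of this gene is known to lack a stable poly(A) tail, and the part of this in the values here was not tested.

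The last subunits of complex I are short and have near-identical copies. mt-Nd3 (ENSMUSG00000064360, chrM:9459-9806) had 109 reads in the old and 90 in the young library, a ratio of 1.09 [0.818 to 1.46]. mt-Nd4l (ENSMUSG00000065947, chrM:9877-10173) had 29 and 34 reads, a ratio of 0.769 [0.452 to 1.30]. Both intervals include 1. mt-Nd4l and mt-Nd4 are read from 1 mRNA and share 7 bases, printed here in capitals within chrM:10152-10188, so a read across them belongs to both genes.
mt-Nd4l end and mt-Nd4 start: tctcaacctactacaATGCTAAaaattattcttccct

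Complex III, which passes electrons to cytochrome c, has 1 mitochondrial subunit. mt-Cytb (ENSMUSG00000064370, chrM:14145-15288), its cytochrome b, was at 6082 FPKM in the old and 6136 FPKM in the young library, a ratio of 0.991 [0.983 to 0.999]. It has no shared words.

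Complex IV, cytochrome c oxidase, takes its catalytic core from mitochondria. mt-Co1 (ENSMUSG00000064351, chrM:5328-6872), which binds the heme and copper where oxygen is reduced, was at 7996 FPKM in the old library, against 6783 FPKM in the young. Its ratio of 1.18 [1.17 to 1.19] rested on 223781 and 171177 reads, and 16.7% of the 12561 genes had a log2 ratio as high or higher. mt-Co2 (ENSMUSG00000064354, chrM:7013-7696), which takes electrons from cytochrome c, was at 149 FPKM in the old and 133 FPKM in the young library, a ratio of 1.12 [1.05 to 1.20]. mt-Co3 (ENSMUSG00000064358, chrM:8607-9390), the third core subunit, was at 72.9 and 69.6 FPKM in the old and young libraries, a ratio of 1.05 [0.957 to 1.15]. All 3 had ratios above 1, and the interval of mt-Co3 included 1. As a percentage of mt-Co1 FPKM, mt-Co2 was at 1.86% in the old and 1.95% in the young library and mt-Co3 at 0.911% and 1.03%. The 3 proteins form 1 core in equal numbers, but with copies of such different extent their mRNA levels cannot be set against each other here.

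Complex V, the ATP synthase, takes from mitochondria the proton channel subunit mt-Atp6 and the small mt-Atp8. mt-Atp6 (ENSMUSG00000064357, chrM:7927-8607) was at 130.4 FPKM in the old library, against 58.5 FPKM in the young. Its ratio of 2.23 [2.03 to 2.44] on 1609 and 651 reads was the highest of the mRNAs over the floor, and 1.56% of the 12561 genes had a log2 ratio as high or higher. mt-Atp8 (ENSMUSG00000064356, chrM:7766-7969) had 5 reads in the old and 2 in the young library, a ratio of 2.25 [0.369 to 23.7], which leaves its direction undetermined at this depth. The 2 genes are read from 1 mRNA in shifted frames and overlap by 43 bases, in capitals within chrM:7912-7984.
mt-Atp8 end and mt-Atp6 start: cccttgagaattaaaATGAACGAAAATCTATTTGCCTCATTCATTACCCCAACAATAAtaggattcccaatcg

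With the counted reads of its copy added, mt-Atp6 was under 2-fold. Gm10925, identical to mt-Atp6 up to the stop codon, had 1661 reads in the old and 1243 in the young library, a ratio of 1.20 [1.12 to 1.30]. Of the reads of the pair, 50.8% were given to the copy in the old library and 65.6% in the young. The pair had 3270 reads in the old and 1894 in the young library, a ratio of 1.56 [1.47 to 1.65] and a log2 ratio of 0.64. Counted reads were thus divided differently within the pair in the libraries, and what set this division was not tested. How reads that fit both genes of a pair were counted is not said in the sources used here. The sums may therefore leave such reads out, and the ratio with them included is not known.

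The same sum for the other pairs gave smaller differences. mt-Co2 with Gm28661 had 3124 reads in the old and 2221 in the young library, a ratio of 1.27 [1.20 to 1.34], in which the copy alone had a ratio of 1.56 [1.43 to 1.71]. For mt-Co3 with Gm28437 the ratio was 1.03 [0.965 to 1.10], for mt-Nd3 with Gm28438 1.23 [0.990 to 1.54] and for mt-Nd4l with Gm10222 1.002 [0.703 to 1.43]. No pair was at 2-fold on the reads counted. The copies took between 41.1% and 58.6% of the reads of these 5 pairs in the old library and between 33.3% and 65.6% in the young. They took under 1% of the reads of the pairs of mt-Co1 and mt-Nd4.

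**Figure D3:**
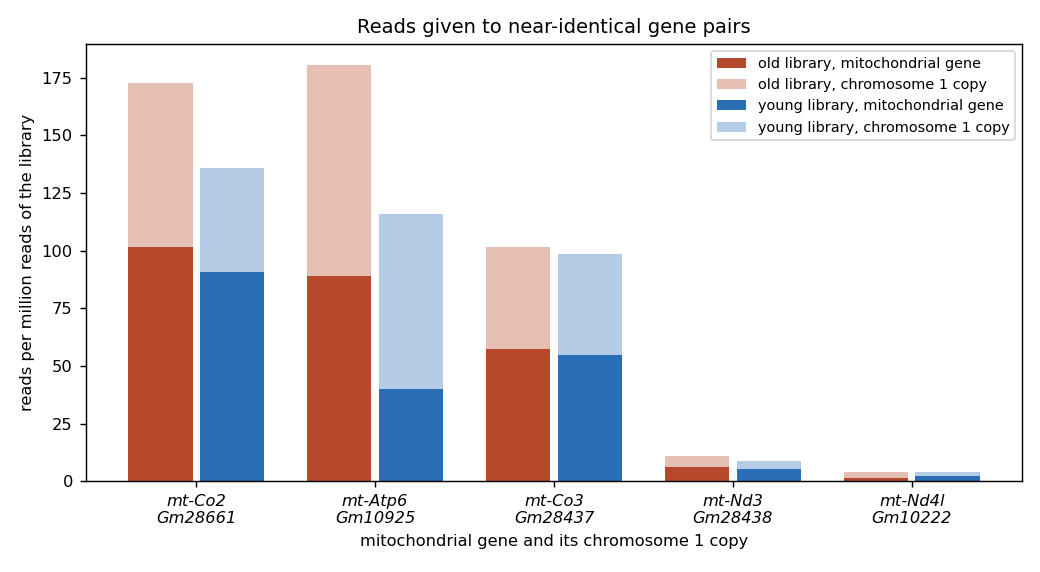
Reads scaled to the library total (RPM) for the 5 mitochondrial genes with over 97% of their words shared (solid) and, stacked on them, their chromosome 1 copies (pale), old library left and young library right in each pair. The total of mt-Atp6 and Gm10925 stands on 3270 reads in the old and 1894 in the young library.

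Over the whole chromosome 1 block the copies had 4674 reads in the old and 3440 in the young library, a ratio of 1.23 [1.17 to 1.28], with 6 of the 7 genes above 1. Gm28439, the copy of mt-Nd4, was the exception at 0.895 [0.752 to 1.07]. Its interval includes 1, as do those of Gm28437 at 1.01 [0.914 to 1.12] and Gm10222 at 1.27 [0.773 to 2.13]. Of the 8 copies elsewhere, 4 had reads. Gm13340 on chromosome 2, which differs from mt-Co1 at 37 of 1545 bases, had 213 reads in the old and 96 in the young library, a ratio of 2.001 [1.57 to 2.57] and a log2 ratio of 0.84. None of the 9 copies over the floor was at 2-fold on that scale. All copies together took 0.0271% of reads in the old and 0.0217% in the young library.

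The RNAs of the mitochondrial ribosome stood in the middle of the order, below 6 of the mRNAs and above 7 in each library. mt-Rnr2 (ENSMUSG00000064339, chrM:1094-2675), the RNA of its large subunit, was at 679.9 FPKM in the old and 663 FPKM in the young library, a ratio of 1.03 [1.005 to 1.05]. mt-Rnr1 (ENSMUSG00000064337, chrM:70-1024), that of the small subunit, was at 397 FPKM in the old and 446 FPKM in the young, a ratio of 0.891 [0.862 to 0.922]. Together they had 4.43% as many reads as the mRNAs in the old library and 4.69% in the young. The old over young ratio of these percentages, 0.945 [0.929 to 0.962, normal approximation on the log scale], was 1.02 when mRNAs sharing 50% or more of their words were left out. The large subunit RNA stood at 1.71 times the FPKM of the small in the old library and 1.49 times in the young. The part that selection of RNA for the libraries has in the levels of both rRNAs was not tested.

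Transfer RNAs were nearly absent from the counted reads, with 317 reads in the old and 172 in the young library over all 22 genes. Each is 59 to 75 bases long and carries 1 amino acid to the mitochondrial ribosome. The part that selection of RNA by kind or size for the libraries has in these low counts was not tested. Of the 22 genes, 13 had no reads in either library: mt-Tf, mt-Tv, mt-Tl1, mt-Ti, mt-Tn, mt-Tc, mt-Td, mt-Tk, mt-Tg, mt-Tr, mt-Th, mt-Ts2 and mt-Tl2. A floor of 3 reads allows up to 2.21 to 2.81 FPKM in the old and 2.45 to 3.11 FPKM in the young library. That floor covers counted reads only and does not bound the RNA in the cells. The 3 with the most reads follow, with the anticodon in capitals: mt-Tw for tryptophan (chrM:4950-5016, plus strand), mt-Tq for glutamine (chrM:3772-3842, minus strand) and mt-Tp for proline (chrM:15356-15422, minus strand).
mt-Tw: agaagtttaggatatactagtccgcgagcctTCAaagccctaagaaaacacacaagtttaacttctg
mt-Tq: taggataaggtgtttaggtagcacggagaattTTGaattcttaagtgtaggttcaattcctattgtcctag
mt-Tp: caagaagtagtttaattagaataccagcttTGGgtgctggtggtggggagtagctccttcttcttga

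All 3 were higher in the old library. mt-Tw had 141 reads in the old and 82 in the young library, a ratio of 1.55 [1.17 to 2.06]. mt-Tq had 77 and 38 reads in the old and young libraries, a ratio of 1.83 [1.22 to 2.77]. mt-Tp had 65 and 30 reads, a ratio of 1.95 [1.25 to 3.12]. None of these intervals included 1.

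The other transfer RNAs with reads rested on few. mt-Ta, for alanine, had 11 reads in the old and 3 in the young library, and its ratio of 3.31 [0.873 to 18.5] is the second member at 2-fold. Its interval includes 1. mt-Tt, for threonine, had 11 and 9 reads in the old and young libraries, a ratio of 1.10 [0.415 to 3.01], and mt-Te, for glutamate, had 8 and 5 reads. mt-Ty and mt-Ts1, for tyrosine and serine, had 2 reads in each library, and mt-Tm, for methionine, had 0 in the old and 1 in the young.

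Where a transfer RNA lies went with whether it had reads, in a split that was not among the planned results. Most of the reads lay in mt-Tw, mt-Tq and mt-Tp. Of the 8 transfer RNAs on the minus strand 6 had reads, mt-Ty and mt-Ts1 only 2 per library, and of the 14 on the plus strand 3. Of the plus-strand ones, 3 are followed by a gene of the other strand, mt-Ti, mt-Tw and mt-Tt, and the last 2 of these held 152 reads in the old and 91 in the young library. The 11 that are followed by a plus-strand gene held 0 and 1. Among these 11, mt-Td, mt-Tk, mt-Tg and mt-Tr lie between genes copied on chromosome 1, where their own sharing was not examined. Most genes adjoin or overlap their neighbours, in a transfer RNA by up to 5 bases in total over both sides (mt-Ti). A fragment longer than the gene thus also touches its neighbours. The sources used here do not say how such fragments were counted or whether strand was used.

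The minus strand as a whole stood higher in the old library. Its 9 genes, mt-Nd6 and 8 transfer RNAs, had 3785 reads in the old and 2387 in the young library, a ratio of 1.43 [1.36 to 1.51]. mt-Nd6 alone held 3620 of these reads in the old and 2307 in the young library. The ratio of the 8 transfer RNAs alone was 1.86 [1.42 to 2.46] on 165 and 80 reads. The 28 plus-strand genes had a ratio of 1.04 [1.04 to 1.04], and the plus-strand transfer RNAs one of 1.49 [1.14 to 1.95]. Minus-strand genes thus took 0.0209% of reads in the old and 0.0146% in the young library. Of the 7 that had reads, 5 had ratios above 1, and the other 2, mt-Ty and mt-Ts1, had 2 reads per library. Without the use of strand in counting, reads antisense to the long plus-strand RNAs and reads of those RNAs cannot be told apart over these genes.

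All mitochondrial genes together took 3.43% of reads in the old library [3.42 to 3.44] and 3.29% in the young [3.28 to 3.30], a ratio of 1.04 [1.04 to 1.05]. This direction rested on mt-Co1. It made up 36.03% of mitochondrial reads in the old and 31.8% in the young library, and the other 36 genes took 2.19% of reads in the old and 2.24% in the young, a ratio of 0.978 [0.973 to 0.982]. mt-Cytb came next at 20.3% and 21.3% of mitochondrial reads in the old and young libraries, then mt-Nd1 at 12.7% in each, mt-Nd2 at 9.59% and 10.4%, and mt-Nd5 at 8.24% and 10.4%. Whether the RNA per cell or the number of mitochondria differed cannot be told from shares of reads.

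Most nuclear subunits of the same complexes were slightly lower in the old library. Of 73 listed genes 72 were over the floor, none was at 2-fold in either direction, and 59 had log2 ratios below 0 and 13 above, with a median of −0.16. Over all 12561 genes 7483 were below 0 and 5078 above, with a median of −0.07. For complex I the median was 0.00 over the 7 mitochondrial and −0.24 over the 37 nuclear subunits, of which 32 were below 0. For complex III mt-Cytb had −0.013 and the 9 nuclear subunits a median of −0.14. For complex IV the medians were 0.16 over the 3 mitochondrial and −0.16 over the 11 measured nuclear subunits, and for complex V mt-Atp6 had 1.14 and the 16 nuclear subunits a median of −0.09. The mitochondrial median of complex IV is the value of mt-Co2, with 100% of its words shared, and mt-Atp6 shares 99.5%. With the counted reads of their copies added, their log2 ratios were 0.34 and 0.64. Over the 5 mRNAs left without those sharing 50% or more of their words the median was −0.013. None of these 5 belongs to complex IV or V, so the gap there rests on genes with copies. The gap between the sets was not tested, and all sets share the same 2 libraries.

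**Figure D4:**
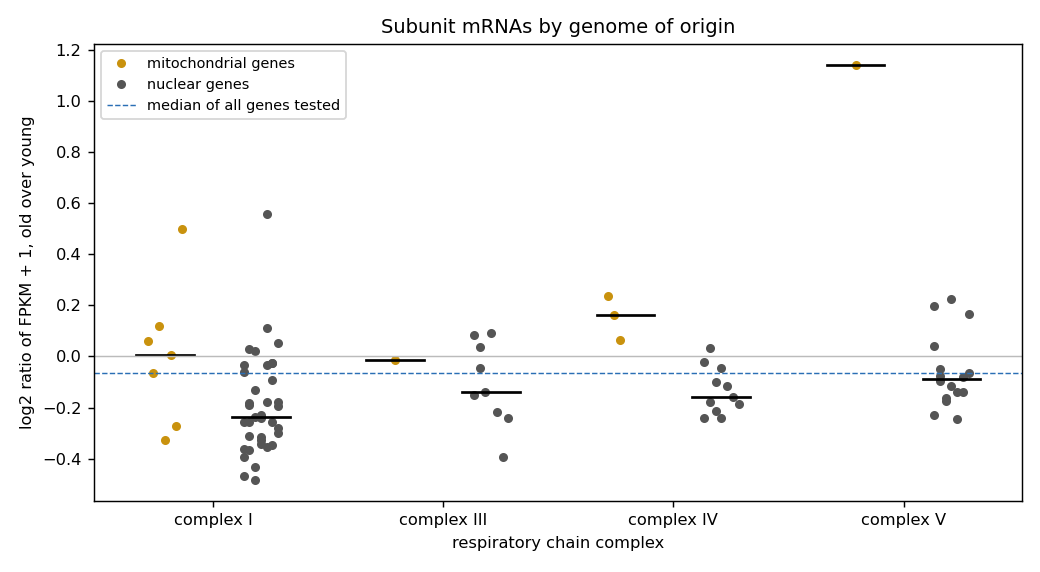
Old over young log2 ratio of FPKM + 1 for mitochondrial (left in each pair) and nuclear (right) subunits of complexes I, III, IV and V. The mitochondrial points of complexes IV and V are all genes with nuclear copies, without the reads of those copies. Each point is a gene, black lines are medians and the dashed line is the median of all genes tested, −0.07; the median of the nuclear subunits lies below it in each complex.

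Among the nuclear subunits the largest difference went against the direction of most. Ndufa12, an accessory subunit of complex I, was at 77.8 FPKM in the old and 52.5 FPKM in the young library, a log2 ratio of 0.56. It shares 17.7% of its words. Ndufc1 and Ndufb3, accessory subunits of the membrane arm, had log2 ratios of −0.48 and −0.47. In complex III, Uqcrh, the hinge protein at cytochrome c1, was at 138 FPKM in the old and 182 FPKM in the young library, a log2 ratio of −0.39, followed by Uqcr10 and Uqcrq at −0.24 and −0.22. In complex IV, Ndufa4, Cox7b and Cox5b lay between −0.24 and −0.21; Ndufa4 is counted in complex I as well, to which it was once assigned. In complex V, Atp5d, the delta subunit of the rotor, had 0.23, and Atp5j2 and Atp5g2 had −0.25 and −0.23, and Atp5g2 shares 38.3% of its words.

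The nuclear genes that transcribe, process and copy the mitochondrial genome, with the regulators of mitochondrial biogenesis, were near the middle of all genes. Of 63 listed 62 were over the floor, none was at 2-fold, and 24 had log2 ratios above 0 and 38 below, with a median of −0.07. Polrmt, the mitochondrial RNA polymerase, was at 22.7 FPKM in the old and 23.6 FPKM in the young library, a ratio of 0.963 [0.870 to 1.07]. Tfam, which packs the genome and starts transcription, was at 34.5 and 38.5 FPKM in the old and young libraries, a ratio of 0.896 [0.815 to 0.986]. Lrpprc, which keeps the mRNAs stable and polyadenylated, was at 34.4 and 34.2 FPKM, a ratio of 1.01 [0.928 to 1.09]. The interval of Tfam lay below 1, and the other 2 included 1.

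By role, the 10 transcription genes had a median of −0.20, with the termination factor relatives Mterf1a and Mterf3 at −0.46 and −0.45 and the elongation factor Tefm at −0.38; Mterf1a shares 25.9% of its words. The 21 genes of RNA processing and stability had a median of −0.04. Among them Rexo2, which degrades short RNA pieces in mitochondria, was at 151 FPKM in the old and 117 FPKM in the young library, a log2 ratio of 0.37, and Fastkd2 and Ptcd1 had −0.36 and −0.32. The 17 genes that modify transfer and ribosomal RNA had a median of 0.12. In that list Nsun3, which methylates the methionine transfer RNA, had 0.43, and Mto1 and Trmu, which modify the wobble base of several transfer RNAs, had 0.40 and −0.59. The 9 replication and packaging genes had a median of −0.13, with the primase Primpol at −0.50, the nuclease Mgme1 at −0.35 and Rnaseh1 at −0.35.

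Of the 6 regulators of mitochondrial biogenesis, which are among the 63 listed genes, 5 were over the floor, with a median of −0.17. Pprc1, a coactivator relative of PGC-1, had a log2 ratio of 0.33, and the transcription factors Nrf1 and Esrra had −0.27 and −0.19. Ppargc1a, which encodes PGC-1 alpha, was listed at 0 FPKM in the old and 0.0201 FPKM in the young library.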

How the data were processed

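The deposited table holds 1 FPKM value per gene and library, made by the authors; per the submitters' processing notes fastp, STAR, HTSeq, edgeR and mm10 were used. Which step each served, and in which version, was not given in the sources used here, nor was any use of strand. Gene names, positions and lengths came from GENCODE M21 (55141 of 55487 identifiers matched). With the rounded mean transcript length of each gene and the inferred library totals, 97.6% of FPKM values above 0 in each library came out as whole reads within 0.01. Differences are log2 ratios of FPKM + 1, old over young, where the mean reached 1 FPKM; with 1 library per group no test was run. Intervals of old over young ratios come from exact Clopper-Pearson intervals of the old library's share of the reads of both libraries. Those of shares of reads are Clopper-Pearson intervals on the total of each library, and those of FPKM are exact Poisson intervals. The rRNA to mRNA ratio has a normal approximation on the log scale. PCR copies are not independent molecules. Shared sequence was the percentage of 50-base words found in annotated transcripts of other genes, on either strand. Where a gene had no reads, 3 reads were taken as its floor. Sequences came from the GENCODE M21 transcripts. Named nuclear genes are up to 3 per list with the largest absolute log2 ratios, plus Polrmt, Tfam and Lrpprc; other genes named followed from membership, from the nuclear copies or from the marker check. The members and lists were chosen with earlier results of these data known. The calculation was tested on simulated data. Python 3.11.15, pandas 2.3.3, scipy 1.17.1 and Biopython 1.88 were used.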

Additional observations from a re-analysis of the deposited data

How the results depend on the processing

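The 2 mitochondrial genes at 2-fold became 1 with a pseudocount of 5 or a minimum mean of 10 FPKM (mt-Atp6 each time), and 1 without genes sharing 50% or more of their words (mt-Ta). It was also 1 (mt-Ta) when chromosome 1 copy reads were added to each gene, a setting chosen after seeing the data. With the median of all genes set to 0, mt-Tp joined them to make 3. The median log2 ratio of the mitochondrial mRNAs was −0.013 without the genes sharing 50% or more of their words, and 0.05 to 0.14 under the other settings. The old over young ratio of the mitochondrial share of reads was 0.940 without the 10 most abundant genes, which include mt-Co1, mt-Cytb and mt-Nd1, and 0.978 without mt-Co1 alone, which was also tried after seeing the data. That of the rRNA to mRNA ratio was 1.02 without the sharing mRNAs. mt-Nd6 over the median of the other mRNAs had an old over young ratio of 1.66, and 1.48 without the sharing mRNAs. The 1.66 depends on which genes border a wide gap at that median. In the old library these were mt-Nd5 at 1549 FPKM and mt-Co2 at 149 FPKM. In the young library they were mt-Nd4 at 1860 FPKM and mt-Co2 at 133 FPKM. Of the 15 nuclear copies 7 had 50% or more of their words shared. The medians of the nuclear subunits and of the expression genes kept their sign. Over all genes 248 were 2-fold higher and 109 lower; a pseudocount of 0.1 gave 408 and 236, one of 5 gave 101 and 20, and a minimum mean of 10 FPKM gave 106 and 27. The cause of these shifts was not tested. Transfer RNAs, mt-Atp8 and mt-Nd4l are limited by depth. No paired analysis was possible because each group has 1 library, and for the same reason no library could be left out.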
